A study of Citrus maxima with 6 samples.

Results

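RAP2-7 (Cs8g17390), WRKY75 (Cs2g25560) and bHLH25 (Cs8g03200) are 3 transcription factor genes of the ripe pummelo pericarp, and they are 3 of the 29406 genes in the RPKM table. They belong to the AP2, WRKY and bHLH families, and their names are the Swiss-Prot matches that the study gave to the sweet orange gene models. The members were chosen by a rule that names these 3 genes, because the study had listed them among 12 transcription factors that differed between MT and WT in these same libraries. Their differences between MT and WT are therefore given as a description, and no test of them is used as support. MT is the orange-pericarp mutant, a spontaneous bud mutation of 'Guanxi' pummelo that was kept by grafting. WT is the 'Guanxi' pummelo itself. Both were sampled untreated, as pericarp of ripe fruits, with 3 biological replicates each (MT1 to MT3 and WT1 to WT3). MT goes back to 1 mutation event, and the sources used here do not give the number of trees or fruits in a replicate. Every library came from the ripe stage, so the course of these genes during ripening was not measured.

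AP2, WRKY and bHLH proteins are large families of plant DNA-binding proteins. RAP2-7 is named after an Arabidopsis protein of the AP2 subfamily that represses flowering, whose family members carry DNA-binding domains shared with the ethylene response factors. WRKY proteins bind W-box elements, and WRKY75 of Arabidopsis takes part in the response to phosphate starvation and in leaf senescence. The bHLH proteins bind E-box elements as dimers. In fruits, members of these families act beside ethylene and abscisic acid in ripening and in the control of pigment genes, but none of these roles was measured here.

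The RPKM values were scaled by the authors to between 9253681 reads (WT1) and 11108186 reads (MT1) per library, numbers recovered from the steps between the RPKM values. Pearson's r of log2(RPKM + 0.5) across the 16719 genes tested was 0.946 to 0.961 within MT, 0.970 to 0.978 within WT and 0.9004 to 0.968 between MT and WT, and genes are not independent replicates. MT3 was the MT library nearest to WT, with a mean r of 0.966 to the WT libraries, and MT2 the one furthest away, with 0.908. Ratios are therefore also given without each of these libraries. Log2 fold changes compare MT with WT and are relative to the median gene, which had a shift of 0.15 towards MT. No pericarp markers were fixed for these identifiers, so the tissue label was not checked against markers.

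The study designed a pair of qRT-PCR primers for each of the 3 genes. They are shown under the gene names that the study gave them, and were not matched to a gene sequence here. Primers are written 5′ to 3′.
RAP2-7 forward: gagtcggctcggtcgtattg
RAP2-7 reverse: gacgtccccgacgaacct
WRKY75 forward: caaaattctggaccaaacacagat
WRKY75 reverse: tctcttcactttcagacccatgaa
bHLH25 forward: tcatcaatcaaagggttaccagaa
bHLH25 reverse: tgtgccattgattcatgaagct
The RAP2-7 primers, of 20 and 18 bases, held 60% and 66.7% G and C. The 4 other primers, of 22 to 24 bases, held 37.5% to 41.7%. The qRT-PCR measurements were not analysed here.

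RAP2-7 was higher in every MT library than in any WT library. It had an RPKM of 27.6 (MT1), 27.8 (MT2) and 16.4 (MT3), against 5.60 in WT1, 7.64 in WT2 and 8.98 in WT3. MT1 and MT2 lay together and MT3 lay below both, at 1.83 times the highest WT value. These values rest on 744, 667 and 391 reads in MT1, MT2 and MT3, against 126, 188 and 226 reads in WT1, WT2 and WT3, for a gene length of 2431 bp recovered from the same steps. The mean RPKM was 23.9 ± 6.48 in MT and 7.41 ± 1.70 in WT (SD, n = 3 each), 3.23 times as high in MT. The ratio was 3.73 without MT3 and 2.97 without MT2. On the log2 scale the fold change was 1.46 with a standard error of 0.26. With the study's limits of 3 and 15 RPKM, RAP2-7 was a highly expressed gene in each MT library and a medium one in each WT library. Of the genes tested, 138 (0.825%) had this pattern. Among the genes with reads in a library, it stood at or above 67.1% to 78.9% of them in MT and 43.6% to 56.5% in WT.

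WRKY75 was lower in every MT library than in any WT library. It had an RPKM of 1.30 (MT1), 1.65 (MT2) and 1.11 (MT3), against 5.29 in WT1, 6.26 in WT2 and 4.73 in WT3. The lowest WT value was 2.87 times the highest MT value. The recovered gene length was 552 bp, the shortest of the 3, so that 1 read was worth an RPKM of 0.163 to 0.196. WRKY75 had 8, 9 and 6 reads in MT1, MT2 and MT3, against 27, 35 and 27 reads in WT1, WT2 and WT3. The mean RPKM was 1.36 ± 0.273 in MT and 5.42 ± 0.777 in WT (SD, n = 3 each), which left MT at 24.98% of the WT level. From the 23 reads in MT and the 89 reads in WT, each divided by the library totals, WT was 4.01 times as high as MT, with bounds of 2.51 and 6.64 (95% exact Clopper-Pearson, counting error only). The WT to MT ratio of means was 3.67 without MT3 and 4.49 without MT2. The log2 fold change was -1.83 with a standard error of 0.21.

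bHLH25 was also lower in every MT library than in any WT library, by a smaller ratio. It had an RPKM of 2.73 (MT1), 2.58 (MT2) and 2.52 (MT3), against 5.50 in WT1, 7.05 in WT2 and 5.08 in WT3. The 3 MT values lay close to each other, and the lowest WT value was 1.86 times the highest MT value. With a recovered length of 1218 bp, the gene had 37, 31 and 30 reads in MT1, MT2 and MT3, against 62, 87 and 64 reads in WT1, WT2 and WT3. The mean RPKM was 2.61 ± 0.113 in MT and 5.88 ± 1.04 in WT (SD, n = 3 each), which left MT at 44.4% of the WT level. The reads gave a WT to MT ratio of 2.25, with bounds of 1.76 and 2.89 of the same kind. The ratio of means was 2.21 without MT3 and 2.24 without MT2, and 2.03 without WT2. The log2 fold change was -1.17 with a standard error of 0.19. WRKY75 and bHLH25 were both in the low class in each MT library and in the medium class in each WT library. This was the case for 23 genes, 0.138% of those tested.

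**Figure D1:**
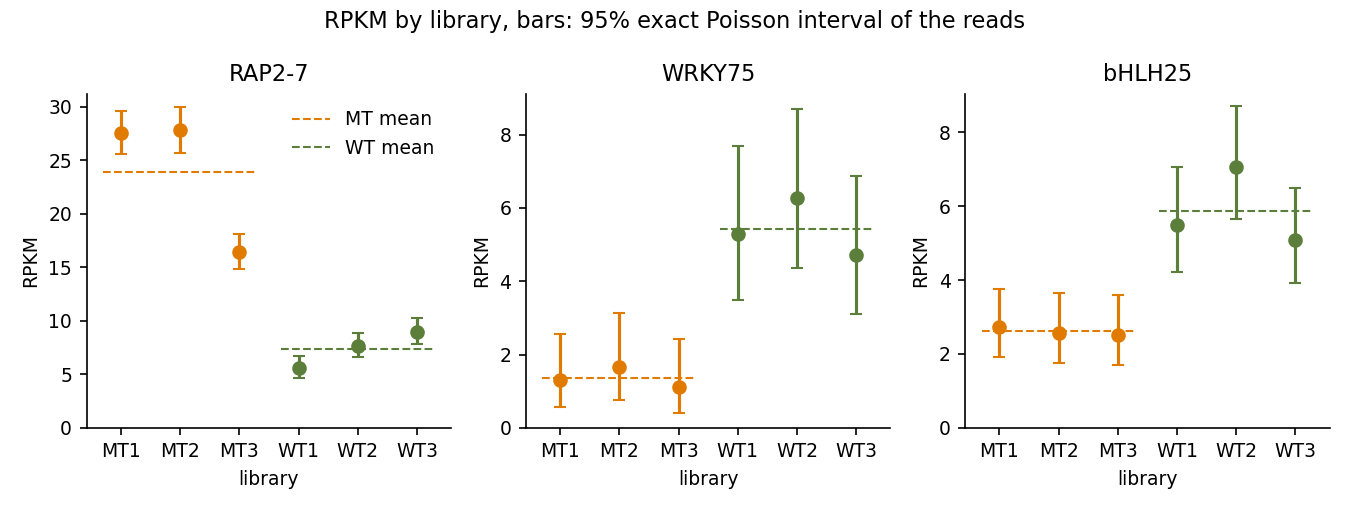
RPKM (y axis) of RAP2-7, WRKY75 and bHLH25 in each library (x axis), MT in orange and WT in green; points are the deposited values, bars the 95% exact Poisson interval of the reads and dashed lines the mean of 3 libraries. RAP2-7 ran from 16.4 to 27.8 in MT and from 5.60 to 8.98 in WT, whereas WRKY75 and bHLH25 lay at 1.11 to 1.65 and 2.52 to 2.73 in MT, below all their WT values.

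Of the 3 genes, 1 had its MT libraries wholly above and 2 had them wholly below the WT libraries. Over all 16719 genes tested, 23.3% lay wholly above and 5.36% wholly below, and this contrast is the one on which the genes were chosen. With each library rescaled by its median ratio, 2214 genes lay wholly above and 2178 wholly below, against 3893 and 896 on the deposited scale, and the 3 members kept their sides. A ratio of means at least as high as that of RAP2-7, with no overlap, was found for 3.45% of genes tested. A ratio at least as low as that of WRKY75, with no overlap, was found for 0.694%, and one at least as low as that of bHLH25 for 1.51%. With limma over all genes tested and an adjusted p of 0.05, 6 genes (0.0359%) passed, 3 higher (0.0179%) and 3 lower (0.0179%) in MT, and at an adjusted p of 0.1 the shares were 2.02% higher and 0.538% lower. An unadjusted p under 0.05 was reached by 3645 genes (21.8%), the 3 members included. None of the 6 genes was a member, and limma voom on the recovered reads called 0 of the 3. WRKY75 passed without the trend, where 15 of the 16719 genes did. RAP2-7 and WRKY75 passed without MT3, where 864 of the 16719 genes did. Nothing is read from these calls, since the genes were chosen on this contrast. In these bulk samples, fewer cells that express a gene and less RNA of it per cell cannot be told apart.

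Ratios between 2 of the genes within a library do not depend on how libraries are scaled to each other. The RPKM of RAP2-7 was 21.1, 16.8 and 14.8 times that of WRKY75 in MT1, MT2 and MT3, against 1.06, 1.22 and 1.90 times in WT1, WT2 and WT3. In WT the genes thus had similar levels per length, and in MT RAP2-7 stood far above. The mean ratio was 17.6 ± 3.23 in MT and 1.39 ± 0.447 in WT (SD, n = 3 each). RAP2-7 over bHLH25 was 10.1, 10.8 and 6.53 in MT1, MT2 and MT3, against 1.02, 1.08 and 1.77 in WT1, WT2 and WT3. The smallest MT ratio was that of MT3 and the largest WT ratio that of WT3 in both of these pairs. The genes that were both lower in MT also differed from each other. The RPKM of bHLH25 was 2.096, 1.56 and 2.27 times that of WRKY75 in MT1, MT2 and MT3, against 1.04, 1.13 and 1.07 times in WT1, WT2 and WT3. The MT ratios of this last pair rest on the 6 to 9 reads of WRKY75.

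**Figure D2:**
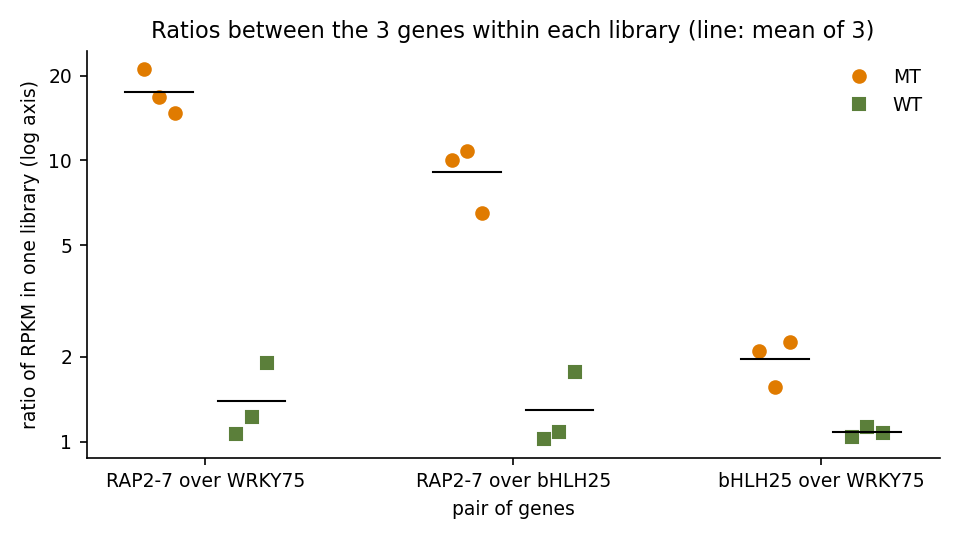
Ratio of the RPKM of 2 genes in the same library (y axis, log scale) for each pair (x axis), MT as orange circles and WT as green squares, with the mean of 3 libraries as a line. The ratio of RAP2-7 to WRKY75 averaged 17.6 in MT and 1.39 in WT, and bHLH25 to WRKY75 averaged 1.97 in MT and 1.08 in WT.

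Over MT1 to MT3, the values of bHLH25 lay closest together and those of RAP2-7 furthest apart. The coefficient of variation (SD over mean) over the MT libraries was 27.1% for RAP2-7, 20.2% for WRKY75 and 4.32% for bHLH25. Over the WT libraries it was 23.0%, 14.3% and 17.7% in the same gene order. The highest MT value was 1.69 times the lowest for RAP2-7, 1.49 times for WRKY75 and 1.09 times for bHLH25. Most of the RAP2-7 spread came from MT3, since the SD of log2(RPKM + 0.5) over the MT libraries was 0.42 with it and 0.0078 without it. For bHLH25 this SD was 0.052, at or above that of 4.001% of the genes tested, and it was 0.11 after median-ratio scaling. The median over all genes tested was 0.26 in MT and 0.22 in WT.

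Counting reads gives an expected spread of its own, and the spread seen over 3 libraries can fall below it. From the mean number of reads, counting error alone would give a coefficient of variation in MT of 4.08% for RAP2-7, 36.1% for WRKY75 and 17.5% for bHLH25. RAP2-7 varied far more than this expected spread, and the other genes varied less than it. The variance of the reads over that from counting alone, allowing for library totals, was 42.4 for RAP2-7, 0.3002 for WRKY75 and 0.0627 for bHLH25 in MT, with a median of 5.60 over all genes tested. In WT it was 9.17, 0.626 and 2.27 in the same gene order, with a median of 3.63. A value of 1 stands for counting error alone. At this depth, differences among MT1, MT2 and MT3 were not detectable for WRKY75 and bHLH25, since their exact Poisson 95% intervals overlapped widely. That of WRKY75 ran from an RPKM of 0.563 to 2.57 in MT1 and from 0.408 to 2.42 in MT3. For RAP2-7 the interval of MT3, 14.8 to 18.1, lay below those of MT1, 25.6 to 29.6, and MT2, 25.7 to 30.0.

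**Figure D3:**
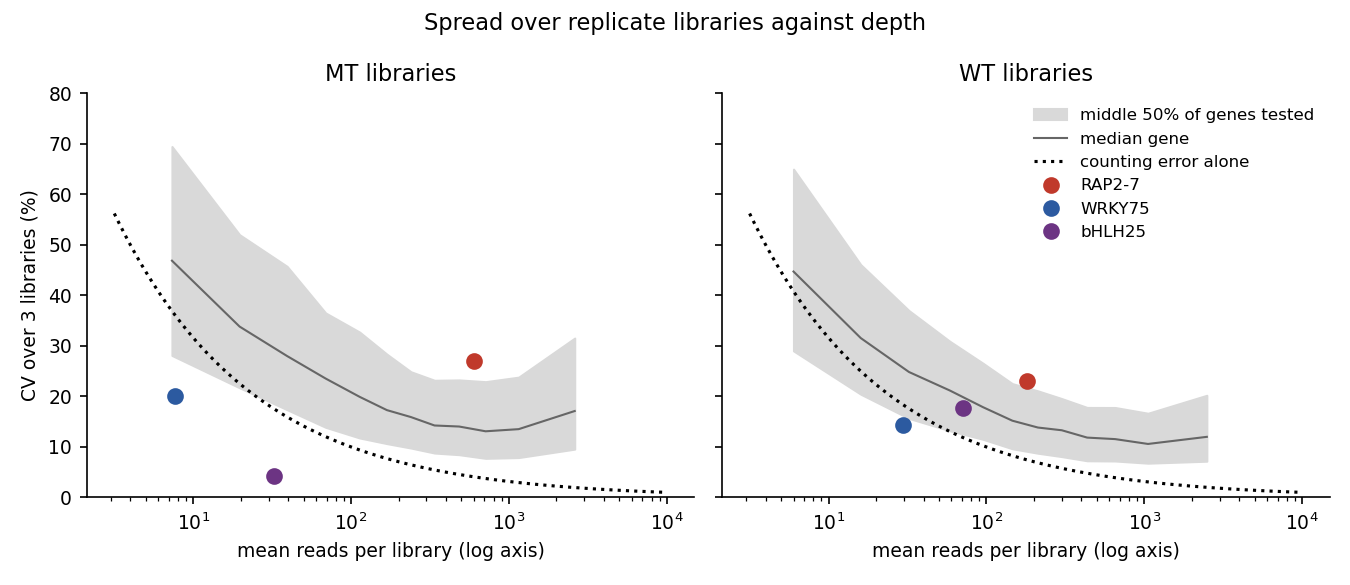
Coefficient of variation over the 3 libraries (y axis, in percent) against the mean reads per library (x axis, log scale) for MT (left) and WT (right); the band is the interquartile range of the genes tested in 12 bins of depth, the dotted line is counting error alone. In MT, RAP2-7 lay above the band at 27.1%, and WRKY75 at 20.2% and bHLH25 at 4.32% lay below the dotted line.

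The distance of each MT library from the WT mean, on the log2 scale and as a percent of the mean distance of the 3 MT libraries, showed a different order for the higher gene and the lower genes. RAP2-7 reached 115% in MT1, 116% in MT2 and 69.6% in MT3. The median over the 3893 genes with MT wholly above WT was 85.5% (MT1), 135% (MT2) and 77.5% (MT3). RAP2-7 shared the low place of MT3 with them. On the deposited scale its MT1 was as far from WT as its MT2 (122% and 112% after median-ratio scaling). WRKY75 reached 102% (MT1), 86.7% (MT2) and 112% (MT3), and bHLH25 94.4%, 101% and 104%. The median over the 896 genes with MT wholly below WT was 98.1% (MT1), 124% (MT2) and 70.7% (MT3). MT3 was thus the library nearest to WT by these medians and the furthest for WRKY75 and bHLH25, although after median-ratio scaling MT2 was the furthest for bHLH25, with 107% against 104% in MT3. MT3 was the furthest library for 13.1% of those 896 genes. For both genes these differences between MT libraries are within counting error.

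**Figure D4:**
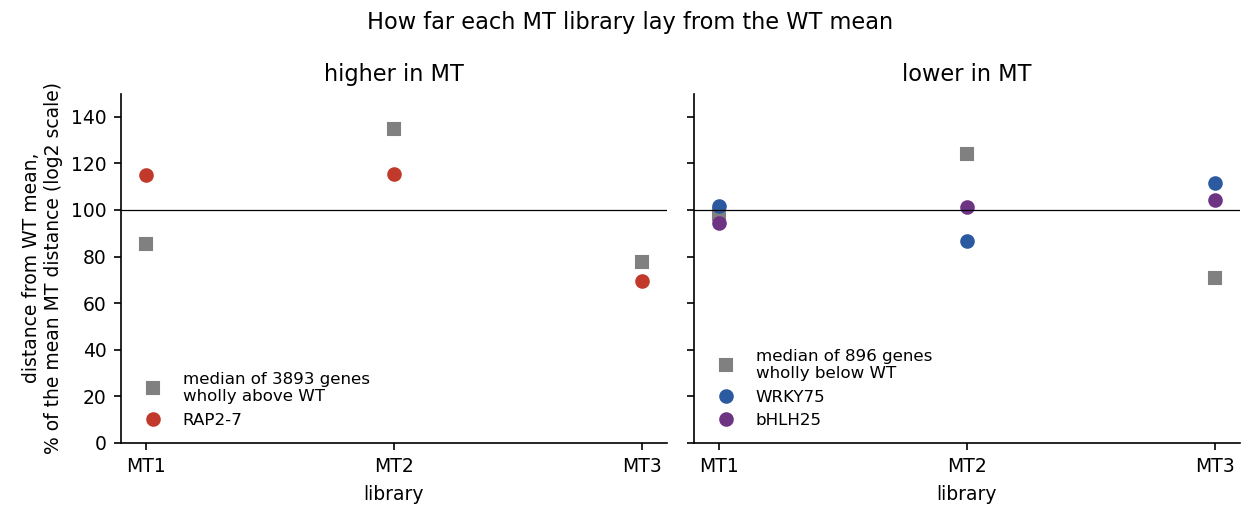
Distance of MT1, MT2 and MT3 (x axis) from the WT mean on the log2 scale, as a percent of the mean MT distance (y axis), for RAP2-7 beside the median of 3893 genes wholly above WT (left), and WRKY75 and bHLH25 beside the median of 896 genes wholly below WT (right). RAP2-7 reached 69.6% in MT3, whereas WRKY75 and bHLH25 reached 112% and 104% there.

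The genes with the most similar profile were taken as those with the smallest root mean square difference of centred log2(RPKM + 0.5) over the 6 libraries, among 14774 genes. For RAP2-7 they were orange1.1t03707, a disease resistance protein match (0.106), Cs3g10530, which has no name in the sources used here (0.121), and Cs3g11050, a match to importin subunit alpha-1a (0.134). The RPKM of orange1.1t03707 was 3.28, 3.69 and 1.54 in MT1, MT2 and MT3, against 0.228, 0.536 and 0.757 in WT1, WT2 and WT3, so its MT3 was also the lowest MT value. These genes have low values, whose differences the added 0.5 narrows, so the likeness is one on this scale. The mean RPKM of orange1.1t03707 was 2.84 in MT and 0.507 in WT, against 23.9 and 7.41 for RAP2-7. Cs3g10530 rests on 39 reads in MT and 11 in WT. For WRKY75 the most similar genes were Cs9g06970, a cysteine synthase match (0.111), Cs4g13090, a gamma-glutamyltranspeptidase 3 match (0.152), and Cs5g28750, without a name here (0.243). Cs9g06970 had an RPKM of 2.52, 2.60 and 2.22 in MT1, MT2 and MT3, against 7.39, 9.60 and 7.36 in WT1, WT2 and WT3. bHLH25 was the gene in place 13 in this order for WRKY75, with a difference of 0.349, whereas WRKY75 was in place 211 for bHLH25. In MT, WRKY75 rests on 23 reads, Cs4g13090 on 55 and Cs5g28750 on 22. These places and differences therefore carry counting error. For bHLH25 the most similar genes were Cs5g34830 (0.144) and Cs2g28180 (0.155), both without a name here, and Cs7g16380, a match to the Myb-related protein 306 (0.153). Cs7g16380 had an RPKM of 24.96, 26.3 and 24.9 in MT1, MT2 and MT3, against 50.5, 50.8 and 36.8 in WT1, WT2 and WT3. Its coefficient of variation over the MT libraries was 3.16%, beside the 4.32% of bHLH25. It rests on 901 reads in MT where bHLH25 had 98. Counting error alone would give 17.5% for bHLH25, so how alike these genes are in evenness is not resolved.

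The other transcription factors of the study's list put these values in context. The study chose all 12 on these libraries, so their directions are not independent evidence. Of the 12, 5 lay wholly above and 7 wholly below WT, and 0 passed an adjusted p of 0.05 in limma over all genes tested, with 12 at an unadjusted p under 0.05 (21.8% of all genes tested were) and 0 called by limma voom. Their median log2 fold change was -1.14, against 0 for all genes tested. On the log2(RPKM + 0.5) scale RAP2-7 had the highest fold change of the 12, but by the ratio of mean RPKM TFIIB-2, a low gene, stood above it, at 5.65 against 3.23. After RAP2-7 on the log2 scale came TFIIB-2, a general initiation factor (1.31), NFYA7, a CCAAT-binding subunit (1.24), and KAN2, an organ polarity factor (1.11). WRKY75 had a log2 fold change between those of MUTE (-2.67), a regulator of the stomatal lineage, and MYBF (-2.43), a putative Myb factor, on one side and NAM-B1 (-1.19) and bHLH25 on the other. By the ratio of means WRKY75 (0.2498) and MYBF (0.253) were nearly equal and in the opposite order. Over MT1 to MT3, bHLH25 had the lowest coefficient of variation of the 12, WRKY75 the next and MYBF the highest, at 97.4%. The values of bHLH25 and WRKY75 lie under the 17.5% and 36.1% expected from counting error alone. Their places among genes with more reads are therefore not resolved at this depth.

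Among 12 further DNA-binding factors in the study's list of differing genes, 6 lay wholly above and 6 wholly below WT. Over all genes tested the shares were 23.3% and 5.36%. At an unadjusted p under 0.05 in limma, 6 were higher and 6 lower in MT, against 21.8% of all genes tested in either direction. The study had selected these too. HDG5 (Cs3g09300), a homeodomain factor of the epidermis, rose in MT in the limma test, with an RPKM of 16.5, 25.3 and 12.7 in MT1, MT2 and MT3, against 2.02, 2.37 and 1.93 in WT1, WT2 and WT3, and an adjusted p of 0.0383. None of the other 11 passed, where 0.0359% of all genes tested did, and limma voom called 0 of the 12. The call was lost without WT1, without WT2 or without WT3, when limma called no gene. DREB3 (orange1.1t03822), which carries an AP2 domain as RAP2-7 does, had an RPKM of 3.02, 3.13 and 1.75 in MT1, MT2 and MT3, against 0.0710, 0.454 and 0.508 in WT1, WT2 and WT3. Its lowest MT value was that of MT3, as for RAP2-7, from 124 reads in MT and 16 in WT. MT3 was also the lowest MT library for 53.0% of the 3893 genes wholly above WT. The order of MT1 and MT2 was not resolved for RAP2-7. ARR2 (Cs8g18860), a cytokinin response regulator, rests on 306 reads in MT and 88 in WT. Its RPKM values lay close together in MT, with 2.9998, 3.37 and 3.21 in MT1, MT2 and MT3. They were 1.004, 0.949 and 0.898 in WT1, WT2 and WT3. The spread of ARR2 was not set against counting error.

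**Figure D5:**
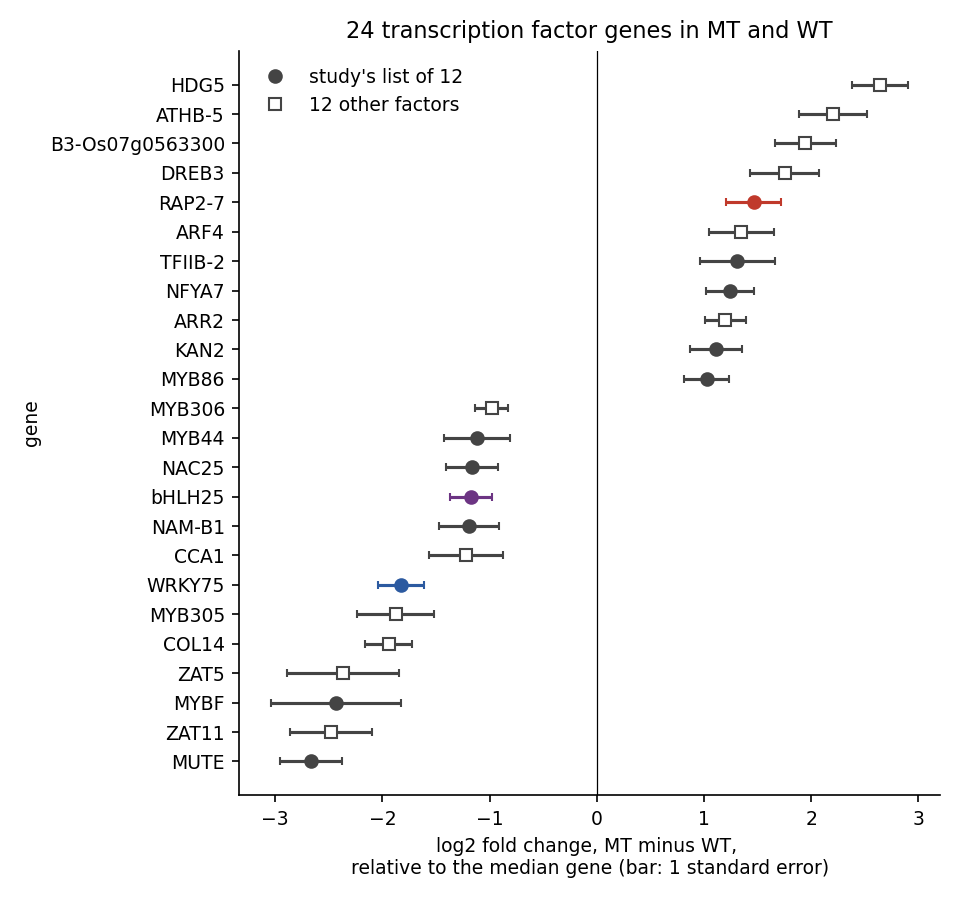
Log2 fold change between MT and WT, positive where MT is higher, relative to the median gene (x axis; bars are 1 standard error) for 24 transcription factor genes (y axis), filled circles for the study's list of 12 and open squares for the 12 others. RAP2-7 stood at 1.46, bHLH25 at -1.17 and WRKY75 at -1.83, within a range of -2.67 (MUTE) to 2.64 (HDG5).

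The 4 phosphate genes in the study's list of differing genes were described beside WRKY75, since that protein acts in phosphate starvation in Arabidopsis. The transporter PHT1-7 (Cs5g29860) had an RPKM of 37.5, 56.9 and 27.8 in MT1, MT2 and MT3, against 2.47, 17.5 and 9.14 in WT1, WT2 and WT3. The 3 others lay wholly below WT, namely the phosphate exporter PHO1 (Cs9g09780) and the purple acid phosphatases PAP3 (Cs2g17980) and PAP20 (Cs6g15040). Of all genes tested, 5.36% lay wholly below. PAP20 had an RPKM of 0.304, 0.684 and 0.276 in MT1, MT2 and MT3, against 2.26, 6.27 and 8.95 in WT1, WT2 and WT3. It rests on 19 reads in MT and 262 in WT. PHO1 is near the floor, with 5 reads in MT and 52 in WT. At an adjusted p of 0.05 limma called 0 of the 4, with 4 at an unadjusted p under 0.05 and 0 called by limma voom. The share over all genes tested was 21.8%, and the study had selected these 4 as differing. The 3 pigment and abscisic acid genes of the list were all wholly below WT, against 5.36% of all genes tested. Abscisic acid 8'-hydroxylase 1 (Cs6g19380), which breaks down abscisic acid, had an RPKM of 72.1, 69.4 and 77.0 in MT1, MT2 and MT3, against 175, 155 and 135 in WT1, WT2 and WT3. Red chlorophyll catabolite reductase (Cs1g22680), an enzyme of chlorophyll breakdown, had 4.31, 6.44 and 9.13 in MT1, MT2 and MT3, against 14.0, 17.2 and 20.9 in WT1, WT2 and WT3. The remaining gene of this list, CAO (Cs3g19690), had 20.5, 13.4 and 24.6 in MT1, MT2 and MT3. Its values were 37.3, 28.5 and 39.5 in WT1, WT2 and WT3. Here too, limma called 0 of the 3, with 3 at an unadjusted p under 0.05, against 21.8% of all genes tested, and 0 called by limma voom. These 3 had been selected by the study in the same way.

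Markers of stomata and epidermis lay on both sides of WT. Of the 5 such genes, which the study had selected as differing, 3 lay wholly above (EPFL9, HDG5 and ASPG1) and 2 wholly below WT (MUTE and KAT3). Over all genes tested, 23.3% lay wholly above and 5.36% wholly below. Their summed RPKM was 32.3 to 51.6 in MT and 39.3 to 45.8 in WT, so that the sums overlapped. Such sums hide opposite changes and do not measure the amount of these cells. The mean RPKM of HDG5 was 18.2 in MT and 2.11 in WT, and that of MUTE 3.85 in MT and 23.2 in WT. MUTE had an RPKM of 2.25, 3.67 and 5.62 in MT1, MT2 and MT3, against 24.99, 21.2 and 23.3 in WT1, WT2 and WT3. EPFL9, which promotes stomata in Arabidopsis, had 29 reads in MT and 0 in WT, where a count of 0 allows up to 3 reads. The part of these cells in the values of RAP2-7, WRKY75 and bHLH25 was not tested.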

How the data were processed

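RNA-Seq was performed on the pericarp of 3 MT and 3 WT samples, as 100 bp single-end reads. The authors used TopHat and Bowtie2 (2.1.0 in the submitters' processing notes) against the genome of sweet orange, allowing 2 mismatches, and deposited RPKM values of uniquely mapped reads per gene model. RPKM divides reads by gene length and by the library total. Whole reads and lengths were recovered from the steps of the RPKM values (tolerance 0.005 reads), and came out whole for each of the 23454 genes not listed at 0. Intervals cover counting error only.

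The authors tested counts with DESeq. Because the table holds RPKM, log2(RPKM + 0.5) was compared with limma 3.58.1 (R 4.3.3, mean-variance trend, Benjamini-Hochberg adjustment, two-sided) for 16719 genes, those averaging an RPKM of 0.3 or more. Such fold changes understate the change of low genes. Other values were computed with Python 3.11.15 and scipy 1.17.1, and the methods were tested on simulated data. The alternatives were the pseudocount, the filter, the scaling, the replicate block, limma voom on recovered reads, no trend, and leaving out each library. With 3 libraries against 3, an exact permutation test could not go below 0.1.

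The genes and lists were chosen with earlier results of these data known. The genes named were the 3 members, the members of the fixed lists, and the 3 genes nearest in profile to each member. Gene names are the study's Swiss-Prot matches. No genome or promoter sequences were used here, so no coordinates are given. P-values measure the spread between these samples only.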

Additional observations from a re-analysis of the deposited data

How the results depend on the processing

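The sides of RAP2-7, WRKY75 and bHLH25 held under all 15 alternatives. The log2 fold change was 1.25 to 1.70 for RAP2-7, -1.91 to -1.70 for WRKY75 and -1.26 to -1.02 for bHLH25 with single libraries left out. That of WRKY75 was -2.09 with a pseudocount of 0.1, -1.58 with a pseudocount of 1 and -2.11 with limma voom, a gene of 6 to 9 reads in each MT library. The SD of log2(RPKM + 0.5) over the MT libraries, with single libraries left out, was 0.0078 to 0.52 for RAP2-7, 0.12 to 0.29 for WRKY75 and 0.020 to 0.071 for bHLH25. For bHLH25 it was 0.11 after median-ratio scaling.

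The number of genes past an adjusted p of 0.05, 6 as reported, depended on the setting. It was 10 with a pseudocount of 0.1, 47 with no filter on low values, 11 with median-ratio scaling, 15 without the trend and 0 with limma voom, where 3579 genes had an unadjusted p under 0.05. With single libraries left out it ran from 0 to 864. The highest was without MT3, and it was 0 without WT1, WT2 or WT3, with 2696, 2970 and 2261 genes at an unadjusted p under 0.05 in limma. With the replicate number as a block it was 122 (91 higher and 31 lower in MT). Whether the numbers pair the samples cannot be decided from so few and such small correlations. The deviations of same-numbered libraries correlated at -0.0458 (MT1 and WT1), 0.193 (MT2 and WT2) and 0.158 (MT3 and WT3). Both MT1 (0.0939) and MT2 correlated best with WT2, and MT3 correlated about equally with WT3 (0.1576) and WT1 (0.1574). The causes were not tested.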
